A study of Mus musculus and Homo sapiens with 24 samples.

Results

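The 37 genes described here are interferon-stimulated genes, picked by a list of symbols. The rule itself uses no measured value, but the list was chosen with earlier results of these data known. The human table holds all 37 among 58735 gene rows. The mouse table holds 38 counterparts among 56748 rows, with Oas1a standing for OAS1 and both Oasl1 and Oasl2 for OASL. The libraries are poly(A) RNA-seq of differentiating cultures of LHCN-M2, human myoblasts carrying TERT and CDK4 transgenes for immortality, and of the mouse myoblast line C2C12. There were 4 libraries in each of 6 groups, LHCN-M2 at days 0, 1 and 12 and C2C12 at days 0, 1 and 6. Every sample carries the genotype label control and the cell type label skeletal myoblast, and the labels name no added interferon and no infection. Each line is a single cell line, so the libraries describe that line only. Whether a day's 4 replicates came from separate cultures is not given, so p-values reflect only how these libraries spread, possibly for technical reasons. In such bulk samples, fewer cells of a type and less RNA per cell cannot be told apart.

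Interferons are secreted proteins that cells release on sensing viral or misplaced nucleic acid. Type I interferons bind the receptor chains IFNAR1 and IFNAR2, whose kinases JAK1 and TYK2 phosphorylate STAT proteins. STAT2 and IRF9 are parts of the complex that then binds the interferon-stimulated response element (ISRE) in the promoters of target genes. The products include RNA sensors, proteins that block viral translation or entry, the antigen presentation machinery and the pathway's own brakes. In skeletal muscle, high levels of these genes are best known from the muscle fibres of patients with dermatomyositis.

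The promoters of the mouse members were read for the ISRE core (GAAA, any 2 bases, GAAA) on either strand, because it is the element that defines the pathway. Promoter sequences were those of RefSeq on GRCm38.p6, from 250 bases before to 50 bases after the annotated start of the gene, and 31 of the 38 mouse members were in that table. The core was found for 14 of the 31 members (45.2%), against 3.99% of all 27018 genes in the table. The GAS core (TTC, any 3 bases, GAA), the element linked to interferon gamma signalling, was found for 8 of the 31 (25.8%), against 9.55% of all genes. A match is a description of the letters in this window and not evidence of binding. Of the 15 members in the table that rose in C2C12 at day 6 against day 0, 8 held an ISRE core, as did 2 of the 7 that fell and 4 of the 9 that were not called. Of the 5 promoters shown, 4 belong to members that rose at day 6 against day 0 and hold a core, and the fifth, of Tap1, to the member that fell furthest and holds none. Capitals mark the ISRE core, and overlapping cores run together.
Isg15, chr4:156200769-156201068, minus strand: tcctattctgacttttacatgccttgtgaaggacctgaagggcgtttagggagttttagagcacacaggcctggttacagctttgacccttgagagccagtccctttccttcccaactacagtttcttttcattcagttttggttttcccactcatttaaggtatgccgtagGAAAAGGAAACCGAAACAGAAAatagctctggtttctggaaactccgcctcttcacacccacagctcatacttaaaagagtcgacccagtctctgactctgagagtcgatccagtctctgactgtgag
Oas1a, chr5:120907476-120907775, minus strand: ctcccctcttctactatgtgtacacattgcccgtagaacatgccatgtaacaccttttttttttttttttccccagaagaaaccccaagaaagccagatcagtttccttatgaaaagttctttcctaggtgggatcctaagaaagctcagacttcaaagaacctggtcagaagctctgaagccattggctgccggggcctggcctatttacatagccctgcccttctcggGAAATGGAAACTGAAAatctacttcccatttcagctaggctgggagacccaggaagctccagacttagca
Ifit3, chr19:34583279-34583578, plus strand: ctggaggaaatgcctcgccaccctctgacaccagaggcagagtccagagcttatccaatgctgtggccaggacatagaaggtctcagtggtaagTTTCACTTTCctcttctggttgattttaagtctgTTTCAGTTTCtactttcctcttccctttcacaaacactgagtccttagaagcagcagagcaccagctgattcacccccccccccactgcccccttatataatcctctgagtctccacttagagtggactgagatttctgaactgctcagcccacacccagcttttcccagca
B2m, chr2:122147437-122147736, plus strand: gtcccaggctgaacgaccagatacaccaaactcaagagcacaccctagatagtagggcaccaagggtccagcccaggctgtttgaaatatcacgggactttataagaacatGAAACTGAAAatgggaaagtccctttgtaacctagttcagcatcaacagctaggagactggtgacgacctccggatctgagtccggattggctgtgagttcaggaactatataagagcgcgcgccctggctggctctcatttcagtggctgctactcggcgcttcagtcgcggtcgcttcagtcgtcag
Tap1, chr17:34187306-34187605, plus strand: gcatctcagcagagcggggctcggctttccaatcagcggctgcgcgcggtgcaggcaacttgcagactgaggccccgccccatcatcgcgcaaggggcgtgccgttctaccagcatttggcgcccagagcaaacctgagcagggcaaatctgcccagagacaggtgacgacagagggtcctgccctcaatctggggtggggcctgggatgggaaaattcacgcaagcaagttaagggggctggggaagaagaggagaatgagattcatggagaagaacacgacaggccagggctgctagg
Isg15, the ubiquitin-like modifier, held 3 overlapping cores, and Oas1a and Ifit3 held 2 each.

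Levels are given as CPM, counts relative to a library total scaled by TMM, in the order of replicates 1 to 4 within a day. Changes are log2 fold changes of the later over the earlier day with their standard error (SE, after ±). A change was called, or passed, at an adjusted p under 0.05 in edgeR's test over all genes. All 37 human and all 38 mouse members passed the filter on low counts, among 18214 and 17065 genes tested. Library totals ran from 33030258 to 48546621 counts in LHCN-M2 and from 32795699 to 43827517 in C2C12. Over all genes, LHCN-M2 day 0 replicate 2 stood apart, with the highest value of its day for 38.4% of genes and the lowest for 36.3%, and so did LHCN-M2 day 12 replicate 1, which was highest for 32.7% and lowest for 30.2%. In C2C12 these shares were largest for day 0 replicate 1, which was highest for 30.0% of genes and lowest for 30.3%. Of 8 myoblast and muscle markers, 7 rose and MYF5 fell in LHCN-M2 at day 1 and at day 12, and all 8 rose in C2C12 at day 1 and at day 6, each against day 0. Summed levels of 8 leukocyte markers were 2.86 to 3.59 CPM at day 0, 0.537 to 1.63 CPM at day 1 and 1.19 to 1.84 CPM at day 12 in LHCN-M2, with TYROBP at 0 on every day. They were 2.94 to 5.31 CPM at day 0, 2.23 to 4.05 CPM at day 1 and 2.29 to 4.97 CPM at day 6 in C2C12. Summed levels of 5 endothelial markers were 11.3 to 20.1 CPM at day 0, 4.70 to 6.92 CPM at day 1 and 15.1 to 17.2 CPM at day 12 in LHCN-M2, with CDH5 at 0 on every day, and of the 4 tested, none rose and 1 fell at day 1 and 2 rose and 1 fell at day 12, each against day 0. In C2C12 they were 0.552 to 1.67 CPM over the 12 libraries, and neither of the 2 tested was called. Of 7 fibroblast genes, collagens among them, 6 rose and 1 fell in LHCN-M2 at day 1 and at day 12 against day 0, with sums of 10504 to 10876 CPM at day 0, 14495 to 16817 CPM at day 1 and 24191 to 25199 CPM at day 12. Of the 6 tested in C2C12, 3 rose and 3 fell at day 1 and 2 rose and 3 fell at day 6, each against day 0. Their sums were 14393 to 16820 CPM at day 0, 14196 to 15474 CPM at day 1 and 10662 to 11138 CPM at day 6. Of all genes tested in LHCN-M2, 23.4% rose and 23.5% fell at day 1, and 27.1% rose and 27.5% fell at day 12, each against day 0. In C2C12, 25.9% rose and 24.4% fell at day 1, and 33.1% rose and 32.5% fell at day 6, each against day 0. The part of these markers in the results was not tested.

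In LHCN-M2 most members rose on the first day and fell back by day 12. At day 1 against day 0, 26 of 37 members rose and none fell, where 23.4% of all genes tested rose and 23.5% fell. At least 2-fold rises were called for 18 of the 37, against 10.8% of all genes, and 2-fold falls for none, against 7.28%. The median log2 fold change of the members was 1.011, against 0.03 over all genes tested. At day 12 against day 1, 26 members fell and only IRF1 rose, where 18.8% of all genes fell and 20.9% rose. Falls of at least 2-fold were called for 23 members and rises for none, against 4.93% and 8.28% of all genes. The median was -1.11, against 0.00 over all genes. At day 12 against day 0, 4 members were higher and 5 lower, where 27.1% and 27.5% of all genes were, and the median was -0.06, against -0.01. Rises of 2-fold were called for 2 members and falls for 3, against 14.5% and 9.77% of all genes. Without day 0 replicate 1, the members called at day 12 against day 0 at any size became 4 higher and 11 lower, with 50.6% of all genes called in either direction. Without LHCN-M2 day 0 replicate 2 and day 12 replicate 1, a choice made after the data were seen, 31 members rose and none fell at day 1 against day 0, 5 rose and 6 fell at day 12 against day 0, and 1 rose and 29 fell at day 12 against day 1. The shares of all genes called in either direction in those fits were 53.0%, 56.9% and 48.9%. The highest mean of the 3 days fell on day 1 for 33 of the 37 members and on day 12 for 4.

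In C2C12 few members fell at day 1, and at day 6 some rose while others fell. At day 1 against day 0, 11 of 38 members rose and 2 fell, where 25.9% and 24.4% of all genes did, with a median of 0.12 against -0.01 over all genes. Rises of 2-fold were called for 2 and falls for none, against 4.91% and 5.65% of all genes. Without day 0 replicate 1, in which every member was highest, 27 rose and 1 fell, with 47.3% of all genes called in either direction in that fit. At day 6 against day 0, 18 members rose and 9 fell, where 33.1% and 32.5% of all genes did. Rises of at least 2-fold were called for 7 members, against 9.83% of all genes, and falls for 2, against 13.5%. The median was 0.46, against -0.03 over all genes. At day 6 against day 1, 18 rose and 10 fell, where 32.8% and 28.6% of all genes did, with a median of 0.39 against 0.02. Rises of 2-fold were called for 5 and a fall for 1, against 7.39% and 10.8% of all genes. With DESeq2 in place of edgeR, 11 rose and 10 fell in that comparison. The shares of all genes above are those of the edgeR fit, and those with DESeq2 are not given here. The highest mean fell on day 6 for 25 of the 38 members, on day 1 for 9 and on day 0 for 4.

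**Figure D1:**
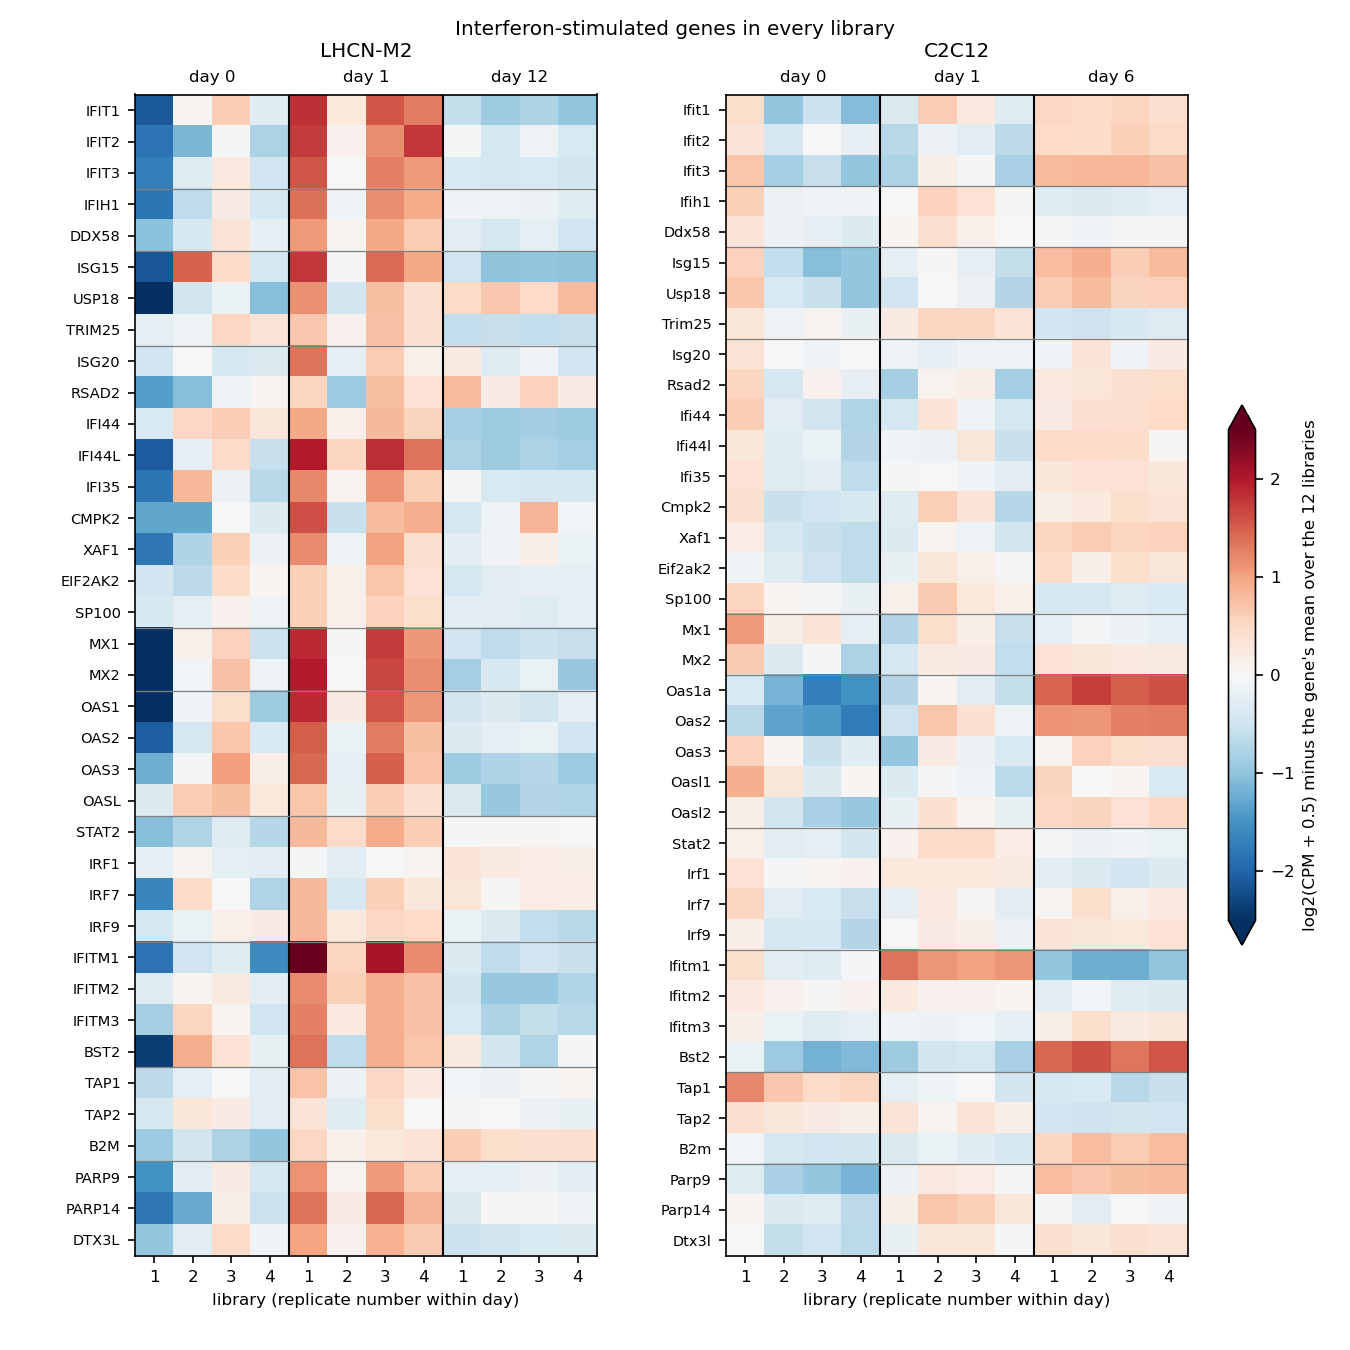
Each row is a member and each column a library, with LHCN-M2 on the left and C2C12 on the right; colour is log2(CPM + 0.5) minus the gene's mean over the 12 libraries of the line, and thin lines separate roles. The LHCN-M2 members are mostly high at day 1, highest there in 33 of 37, while in C2C12 Oas1a, Oas2, Bst2 and Parp9 are highest at day 6.

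The IFIT proteins bind foreign RNA and block its translation, and their human genes lie together on chromosome 10, from 89283694 to 89406486 on GRCh38. The deposited positions of IFIT1, IFIT2 and IFIT3 overlap LIPA on the opposite strand, so reads may be shared. All 3 rose in LHCN-M2 at day 1 and fell by day 12. IFIT1 was at 32.3, 146, 215 and 113 CPM at day 0, 498, 169, 413 and 338 CPM at day 1, and 92.4, 74.8, 81.6 and 71.6 CPM at day 12. IFIT2 was at 11.6, 18.9, 42.0 and 24.4 CPM at day 0, 145, 46.2, 95.9 and 146 CPM at day 1, and 41.8, 31.5, 38.8 and 32.4 CPM at day 12. IFIT3 was at 29.0, 76.5, 114 and 68.2 CPM at day 0, 285, 96.7, 231 and 202 CPM at day 1, and 74.0, 71.5, 73.8 and 70.0 CPM at day 12. Every IFIT2 library of day 1 was above every library of day 0, while day 1 replicate 2 overlapped day 0 for IFIT1 and IFIT3. At day 1 against day 0 the change was 1.49 ± 0.41 (adjusted p = 0.00780) for IFIT1, 2.16 ± 0.36 (adjusted p = 0.000167) for IFIT2 and 1.501 ± 0.33 (adjusted p = 0.00175) for IFIT3. By day 12 the change against day 1 was -2.15 ± 0.42 (adjusted p = 0.000827) for IFIT1, -1.58 ± 0.36 (adjusted p = 0.00240) for IFIT2 and -1.49 ± 0.33 (adjusted p = 0.00231) for IFIT3, and these days did not overlap. None of the 3 passed at day 12 against day 0. IFIT1 passed at day 12 against day 0 without day 0 replicate 1 (-0.99, adjusted p = 0.00935). IFIT2 passed at day 12 against day 0 without day 0 replicate 3 (0.98, adjusted p = 0.0229).

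In C2C12, Ifit3 was at 253, 87.3, 105 and 79.5 CPM at day 0, 90.6, 176, 153 and 89.1 CPM at day 1, and 272, 277, 280.1 and 259 CPM at day 6. Day 0 replicate 1 was near the day 6 level and the other 3 libraries of day 0 far below it. At day 1 against day 0 Ifit3 was not called, with -0.05. Ifit3 turned sign and passed at day 1 against day 0 without day 0 replicate 1 (0.53, adjusted p = 0.0103). Ifit3 rose by 1.05 ± 0.27 (adjusted p = 0.00165) at day 6 against day 0 and by 1.10 ± 0.27 (adjusted p = 0.00123) at day 6 against day 1. Ifit1 averaged 105 ± 57.9 CPM at day 0, 149.9 ± 51.3 CPM at day 1 and 196 ± 7.33 CPM at day 6 (SD, n = 4 each), and its change at day 6 against day 0 was 0.90 ± 0.25 (adjusted p = 0.00311). Ifit2 fell at day 1 against day 0, with -0.37 ± 0.13 (adjusted p = 0.0197), and rose by 0.56 ± 0.13 (adjusted p = 0.000597) at day 6 against day 0. Its libraries were at 92.7, 54.9, 74.0 and 64.2 CPM at day 0 and 45.3, 67.0, 61.8 and 47.0 CPM at day 1. These days overlapped, and without day 0 replicate 1 the fall of Ifit2 at day 1 was not called. Reads of the mouse Ifit1 and Ifit3 families may be shared with near-identical copies.

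ISG15 is the ubiquitin-like protein that is joined to other proteins in the interferon response, and USP18 removes it and also damps signalling at the receptor. ISG15 in LHCN-M2 was at 23.96, 297, 149 and 78.4 CPM at day 0, 363, 105, 286 and 206 CPM at day 1, and 75.5, 52.6, 54.1 and 52.9 CPM at day 12. The 4 libraries of day 0 spread more than 10-fold, and day 0 replicate 2 lay above 3 of the 4 libraries of day 1. The change at day 1 against day 0 was 0.81 ± 0.52 (adjusted p = 0.225) and was not called, and ISG15 fell by day 12 against day 1, with -2.03 ± 0.54 (adjusted p = 0.00752). ISG15 passed at day 1 against day 0 without day 0 replicate 2 (1.53, adjusted p = 0.00345). ISG15 passed at day 12 against day 0 without day 0 replicates 1 or 4 (-1.57 to -1.42, adjusted p = 0.00445 to 0.0449). USP18 was at 2.84, 14.1, 17.5 and 9.13 CPM at day 0, 43.7, 14.2, 33.4 and 26.3 CPM at day 1, and 27.3, 31.5, 27.8 and 34.0 CPM at day 12. USP18 was higher on both later days: its change was 1.43 ± 0.40 (adjusted p = 0.00837) at day 1 and 1.47 ± 0.40 (adjusted p = 0.00601) at day 12, each against day 0, and near-copies of USP18 may share its reads. TRIM25, a ubiquitin ligase that acts on the sensor encoded by DDX58, was at 104, 112, 177 and 153 CPM at day 0, 195, 132, 203 and 161 CPM at day 1, and 79.7, 82.0, 80.0 and 81.9 CPM at day 12. It fell by day 12, with -0.76 ± 0.16 (adjusted p = 0.000909) against day 0 and -1.09 ± 0.16 (adjusted p = 6.47e-05) against day 1, and all libraries of day 12 lay below all others. TRIM25 passed at day 1 against day 0 without day 0 replicate 3 or day 1 replicate 2 (0.45 to 0.49, adjusted p = 0.0154 to 0.0312).

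In C2C12, Isg15 was at 121, 52.2, 38.0 and 41.0 CPM at day 0, 69.1, 81.9, 69.4 and 53.3 CPM at day 1, and 137, 150.3, 123 and 139 CPM at day 6. All 4 libraries of day 6 were above all libraries of days 0 and 1. The change was 1.12 ± 0.24 (adjusted p = 0.000325) at day 6 against day 0 and 1.002 ± 0.24 (adjusted p = 0.000965) against day 1. Isg15 passed at day 1 against day 0 without day 0 replicate 1 (0.69, adjusted p = 2.32e-05). Usp18 averaged 32.2 ± 18.1 CPM at day 0, 29.0 ± 6.54 CPM at day 1 and 56.4 ± 4.36 CPM at day 6 (SD, n = 4 each) and rose at day 6, with 0.81 ± 0.23 (adjusted p = 0.00452) against day 0. Trim25 averaged 63.0 ± 9.92 CPM at day 0, 82.0 ± 8.77 CPM at day 1 and 45.5 ± 2.71 CPM at day 6 and moved up at day 1, with 0.38 ± 0.09 (adjusted p = 0.00159), and down at day 6, with -0.47 ± 0.09 (adjusted p = 0.000153) against day 0.

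OAS enzymes make the short 2'-5' linked adenylates that switch on RNase L, and OAS1, OAS3 and OAS2 lie side by side on human chromosome 12, from 112906777 to 113011723 on GRCh38. OAS1 in LHCN-M2 was at 1.97, 14.4, 21.4 and 8.14 CPM at day 0, 58.2, 18.2, 47.2 and 34.1 CPM at day 1, and 11.2, 12.3, 11.2 and 13.2 CPM at day 12. OAS2 was at 7.90, 25.7, 56.3 and 26.7 CPM at day 0, 100.04, 31.1, 86.7 and 59.2 CPM at day 1, and 27.3, 29.5, 30.7 and 24.7 CPM at day 12. OAS3 was at 32.7, 73.8, 156 and 85.7 CPM at day 0, 209.7, 64.7, 216 and 126 CPM at day 1, and 40.9, 44.5, 46.7 and 40.4 CPM at day 12. For all 3, day 1 replicate 2 was the low library of day 1 and overlapped day 0, as did day 1 replicate 4 for OAS3. OAS1 rose by 1.78 ± 0.48 (adjusted p = 0.00639) and OAS2 by 1.25 ± 0.43 (adjusted p = 0.0257) at day 1 against day 0, while OAS3, at 0.82 ± 0.39 (adjusted p = 0.0946), was not called. All 3 fell at day 12 against day 1, OAS1 with -1.72 ± 0.48 (adjusted p = 0.00947), OAS2 with -1.31 ± 0.43 (adjusted p = 0.0244) and OAS3 with -1.84 ± 0.40 (adjusted p = 0.00176). At day 12 against day 0, OAS3 was lower, with -1.01 ± 0.39 (adjusted p = 0.0391), as was OASL, with -1.18 ± 0.26 (adjusted p = 0.00134), while OAS1 stood at 0.06 and OAS2 at -0.06. OAS2 did not pass at day 1 against day 0 without day 0 replicate 4 or day 1 replicates 1 or 3 (1.02 to 1.20, adjusted p = 0.0576 to 0.0856). OAS2 did not pass at day 12 against day 1 without day 1 replicates 1 or 3 or day 12 replicates 1, 2 or 4 (-1.33 to -1.08, adjusted p = 0.0514 to 0.0819). OAS3 passed at day 1 against day 0 without day 0 replicate 3 or day 1 replicate 2 (1.08 to 1.27, adjusted p = 0.0108 to 0.0244). OAS3 did not pass at day 12 against day 0 without day 0 replicates 3 or 4 or day 12 replicates 1, 2, 3 or 4 (-1.05 to -0.57, adjusted p = 0.0580 to 0.189). The rise of OAS2 was also not called in a fit of days 0 and 1 alone.

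The same enzymes gave the largest rises of the members in C2C12 at day 6 against day 0. Oas1a was at 12.9, 7.30, 4.86 and 5.57 CPM at day 0, 10.04, 17.9, 14.02 and 11.1 CPM at day 1, and 47.2, 57.3, 49.3 and 52.3 CPM at day 6. Oas2 was at 17.3, 11.1, 10.3 and 8.15 CPM at day 0, 19.7, 46.1, 37.2 and 26.0 CPM at day 1, and 62.7, 61.6, 69.2 and 69.3 CPM at day 6. No library of day 6 overlapped any of the earlier days for either gene. Oas1a rose by 2.74 ± 0.22 (adjusted p = 4.79e-10) at day 6 against day 0 and Oas2 by 2.49 ± 0.21 (adjusted p = 1.47e-09). Oas2 was already higher at day 1, by 1.46 ± 0.21 (adjusted p = 6.55e-06), with all 4 libraries above day 0. Oasl2 averaged 113 ± 41.9 CPM at day 0, 159 ± 30.8 CPM at day 1 and 218 ± 12.8 CPM at day 6 (SD, n = 4 each) and rose by 0.95 ± 0.17 (adjusted p = 3.78e-05) at day 6, whereas Oasl1, at 1.60 to 2.63 CPM on average, was not called in any of the 3 comparisons. Oas3 was not called at day 6 against day 0, with 0.39 ± 0.22 (adjusted p = 0.122), and rose against day 1, with 0.68 ± 0.22 (adjusted p = 0.0109). Members of the OAS family may share reads.

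**Figure D2:**
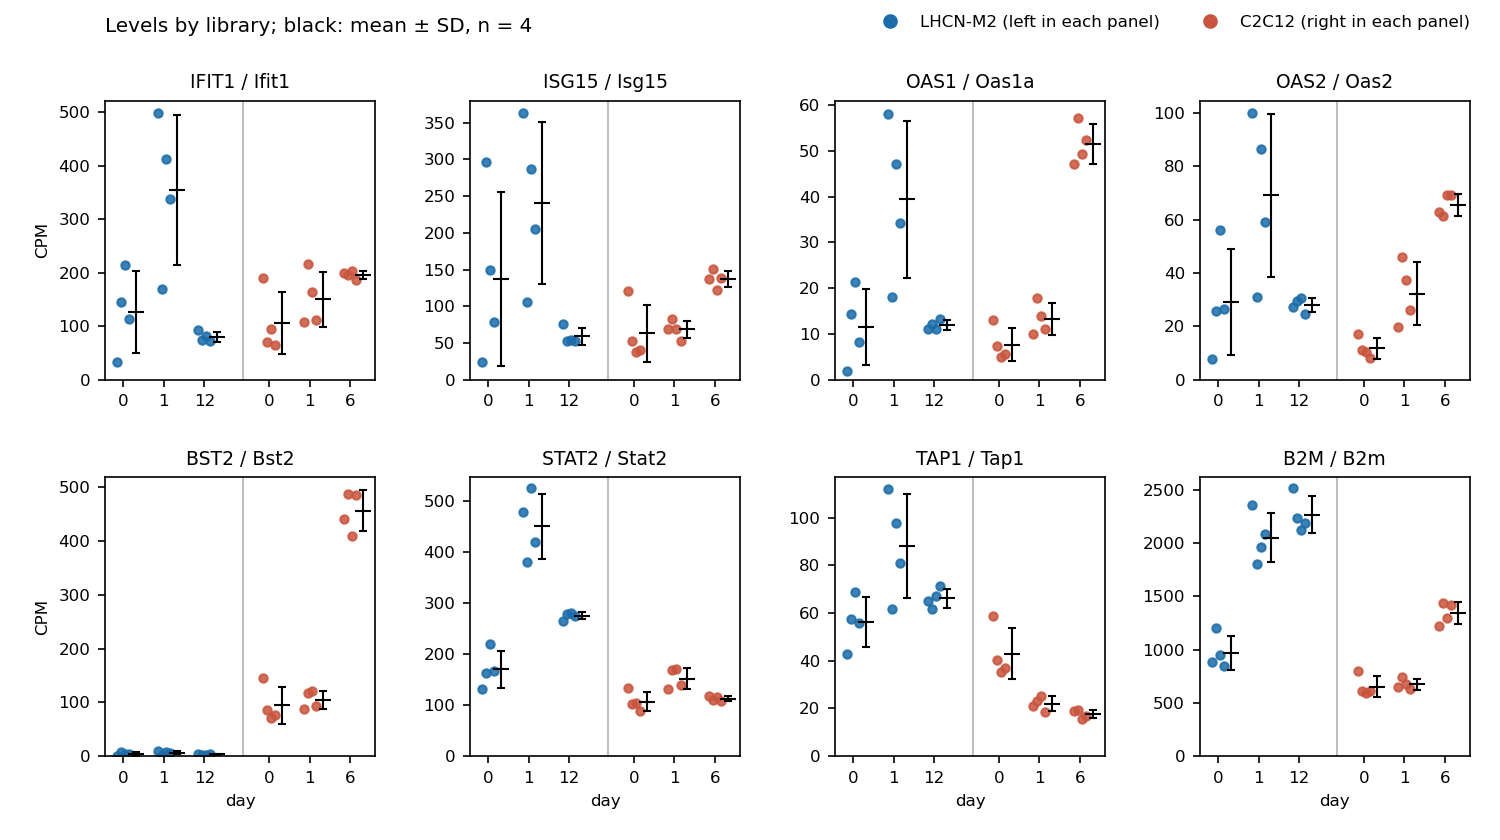
CPM (linear axis) of 8 members in every library, with LHCN-M2 left and C2C12 right in each panel and black marks for mean and SD of 4 libraries. OAS1 reaches 18.2 to 58.2 CPM at day 1 in LHCN-M2, while Oas1a reaches 47.2 to 57.3 CPM at day 6 in C2C12; B2M and B2m are high on the last day in both lines.

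MX1 and MX2 are dynamin-like GTPases that trap viral particles, with neighbouring human genes on chromosome 21, from 41361943 to 41459214 on GRCh38. MX1 in LHCN-M2 was at 11.0, 79.6, 109 and 49.9 CPM at day 0, 265, 74.1, 246 and 154 CPM at day 1, and 51.6, 46.5, 50.05 and 48.2 CPM at day 12. MX2 was at 0.270, 5.38, 9.81 and 5.17 CPM at day 0, 23.8, 5.68, 19.2 and 13.4 CPM at day 1, and 2.93, 4.18, 4.97 and 2.72 CPM at day 12. Day 0 replicate 1 was the lowest of the 12 libraries for both. MX1 changed by 1.57 ± 0.49 (adjusted p = 0.0157) at day 1 against day 0 and by -1.91 ± 0.49 (adjusted p = 0.00614) at day 12 against day 1. MX2 changed by 1.59 ± 0.59 (adjusted p = 0.0379) and by -2.07 ± 0.60 (adjusted p = 0.0127) in the same comparisons. MX1 did not pass at day 1 against day 0 without day 1 replicate 1 (1.34, adjusted p = 0.0510). MX2 did not pass at day 1 against day 0 without day 0 replicate 4 or day 1 replicates 1, 3 or 4 (1.31 to 1.65, adjusted p = 0.0557 to 0.115). The rise of MX2 was also not called with DESeq2 or in a fit of days 0 and 1 alone. In C2C12, Mx1 averaged 12.5 ± 5.24 CPM at day 0, 8.66 ± 3.51 CPM at day 1 and 8.28 ± 0.607 CPM at day 6 (SD, n = 4 each) and was lower at day 6 against day 0, with -0.60 ± 0.25 (adjusted p = 0.0399), although the libraries overlapped. Mx2 was not called in C2C12, with 0.32 at day 6 against day 0.

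IFITM proteins sit in membranes and hinder the entry of enveloped viruses, and BST2 (tetherin) holds budding virus at the cell surface. In LHCN-M2, IFITM1 was at 0.893, 3.05, 3.51 and 1.17 CPM at day 0, 26.7, 6.72, 20.2 and 10.7 CPM at day 1, and 3.43, 2.70, 3.08 and 2.90 CPM at day 12. Its rise of 2.90 ± 0.44 (adjusted p = 6.63e-05) at day 1 was the largest among the human members, and it fell by day 12 with -2.41 ± 0.43 (adjusted p = 0.000381). IFITM2 was at 23.0, 30.1, 33.7 and 23.9 CPM at day 0, 65.9, 44.0, 53.3 and 48.0 CPM at day 1, and 20.7, 14.7, 14.7 and 16.9 CPM at day 12. It rose by 0.93 ± 0.16 (adjusted p = 0.000147) at day 1 and was lower at day 12 than at day 0, with -0.72 ± 0.16 (adjusted p = 0.00116). IFITM3 was at 119.9, 309.7, 227 and 152 CPM at day 0, 514, 254, 405 and 358 CPM at day 1, and 165, 125, 141 and 133 CPM at day 12. It changed by 0.92 ± 0.25 (adjusted p = 0.00697) at day 1 and by -1.44 ± 0.25 (adjusted p = 0.000342) at day 12 against day 1. IFITM3 passed at day 12 against day 0 without day 0 replicate 1 (-0.71, adjusted p = 0.0180). The deposited positions of IFITM1 and IFITM2 overlap on the same strand of chromosome 11 and the 3 genes are alike in sequence, so their reads may be shared. BST2 in LHCN-M2 averaged 3.72 ± 2.83 CPM at day 0, 6.16 ± 3.13 CPM at day 1 and 2.92 ± 1.00 CPM at day 12 (SD, n = 4 each), and was not called in any comparison.

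In C2C12 the 4 genes of this group took different courses. Ifitm1 was at 13.5, 8.11, 7.70 and 9.66 CPM at day 0, 25.9, 21.7, 20.2 and 21.6 CPM at day 1, and 4.78, 3.91, 3.95 and 4.68 CPM at day 6. The 3 days did not overlap. Ifitm1 rose by 1.19 ± 0.14 (adjusted p = 6.89e-07) at day 1 and fell at day 6 against day 1, with -2.36 ± 0.15 (adjusted p = 2.66e-11). Bst2 was at 145, 86.0, 71.6 and 75.8 CPM at day 0, 87.4, 118, 120.5 and 92.99 CPM at day 1, and 442, 488, 409 and 486 CPM at day 6. All libraries of day 6 were far above all earlier ones, a rise of 2.27 ± 0.16 (adjusted p = 9.79e-11) at day 6 against day 0. Bst2 passed at day 1 against day 0 without day 0 replicate 1 (0.47, adjusted p = 0.000260). Ifitm3 averaged 706 ± 104 CPM at day 0, 709 ± 32.6 CPM at day 1 and 943 ± 85.9 CPM at day 6 and rose by 0.42 ± 0.08 (adjusted p = 9.64e-05) at day 6. Ifitm2 averaged 79.8 ± 5.04 CPM at day 0, 80.4 ± 4.38 CPM at day 1 and 61.5 ± 5.91 CPM at day 6 and was lower at day 6, with -0.38 ± 0.07 (adjusted p = 5.82e-05).

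B2M is the light chain of every MHC class I molecule, and TAP1 and TAP2 form the transporter that loads it with peptide. B2M was the most abundant member in LHCN-M2 per kilobase of gene length on all 3 days. Its level was 879, 1202, 946 and 843 CPM at day 0, 2357, 1805, 1959.5 and 2083 CPM at day 1, and 2521, 2235, 2126 and 2191 CPM at day 12. B2M rose by 1.08 ± 0.11 (adjusted p = 1.05e-06) at day 1 and by 1.23 ± 0.11 (adjusted p = 1.91e-07) at day 12, each against day 0, with no overlap. TAP1 averaged 56.2 ± 10.6 CPM at day 0, 88.1 ± 21.8 CPM at day 1 and 66.2 ± 4.05 CPM at day 12 (SD, n = 4 each) and rose by 0.65 ± 0.16 (adjusted p = 0.00415) at day 1, while TAP2, at 0.15, was not called. In C2C12, B2m was at 798, 614, 589 and 607 CPM at day 0, 650.1, 746, 673 and 627 CPM at day 1, and 1218, 1434, 1293 and 1418 CPM at day 6. It rose at day 6, by 1.04 ± 0.08 (adjusted p = 4.17e-10) against day 0, and was not called at day 1, with 0.05 ± 0.08 (adjusted p = 0.656). The transporter genes went the other way in C2C12. Tap1 was at 58.6, 40.4, 35.4 and 37.1 CPM at day 0, 21.1, 23.3, 25.2 and 18.2 CPM at day 1, and 18.7, 19.2, 15.3 and 16.9 CPM at day 6. Its change was -0.97 ± 0.13 (adjusted p = 3.29e-06) at day 1 and -1.29 ± 0.13 (adjusted p = 2.91e-08) at day 6, each against day 0, without overlap, and it was -0.33 ± 0.13 (adjusted p = 0.0391) at day 6 against day 1. Tap2 averaged 33.7 ± 2.90 CPM at day 0, 32.7 ± 2.78 CPM at day 1 and 19.7 ± 0.472 CPM at day 6 and was lower at day 6, with -0.77 ± 0.08 (adjusted p = 2.50e-08). B2m passed at day 1 against day 0 without day 0 replicate 1 (0.20, adjusted p = 0.00715). Tap1 did not pass at day 6 against day 1 without day 1 replicates 2 or 3 or day 6 replicate 3 (-0.35 to -0.30, adjusted p = 0.0513 to 0.0767).

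PARP9 and DTX3L act as a pair that modifies proteins at sites of interferon signalling, and PARP14 is a related enzyme; PARP9 and DTX3L overlap at their start on opposite strands of human chromosome 3. In LHCN-M2, PARP9 was at 26.9, 63.8, 89.3 and 58.1 CPM at day 0, 169, 81.8, 163 and 119 CPM at day 1, and 65.2, 66.3, 70.1 and 64.6 CPM at day 12. DTX3L was at 43.6, 69.8, 119.9 and 78.8 CPM at day 0, 171, 92.4, 156 and 135 CPM at day 1, and 58.7, 62.3, 65.8 and 66.3 CPM at day 12. PARP14 was at 22.7, 33.0, 87.9 and 54.1 CPM at day 0, 205, 91.1, 215 and 143 CPM at day 1, and 61.6, 80.8, 81.2 and 72.8 CPM at day 12. All 3 had their lowest value of day 1 in replicate 2, and only PARP14 had no overlap between day 1 and day 0. The change at day 1 against day 0 was 1.16 ± 0.28 (adjusted p = 0.00287) for PARP9, 0.83 ± 0.24 (adjusted p = 0.00942) for DTX3L and 1.73 ± 0.34 (adjusted p = 0.000683) for PARP14. Between day 12 and day 1 it was -1.002 ± 0.28 (adjusted p = 0.00931) for PARP9, -1.13 ± 0.24 (adjusted p = 0.00142) for DTX3L and -1.14 ± 0.34 (adjusted p = 0.0137) for PARP14. DTX3L passed at day 12 against day 0 without day 0 replicate 1 (-0.51, adjusted p = 0.0446). PARP14 passed at day 12 against day 0 without day 0 replicate 3 (1.013, adjusted p = 0.00958). In C2C12, Parp9 was at 44.3, 31.0, 27.9 and 24.2 CPM at day 0, 49.5, 64.9, 62.1 and 54.0 CPM at day 1, and 94.5, 87.7, 92.4 and 95.3 CPM at day 6. It rose stepwise without overlap, by 0.85 ± 0.13 (adjusted p = 9.25e-06) at day 1 and by 1.54 ± 0.13 (adjusted p = 9.15e-10) at day 6, each against day 0. Dtx3l rose at day 6 too, by 0.76 ± 0.12 (adjusted p = 1.30e-05), whereas Parp14 was highest at day 1, with 0.75 ± 0.12 (adjusted p = 3.31e-05) at day 1 and 0.20 at day 6, each against day 0.

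IFI44, IFI44L and IFI35 are interferon-induced proteins, and XAF1 is a pro-apoptotic one. In LHCN-M2, IFI44L was at 20.6, 75.1, 125 and 59.8 CPM at day 0, 352, 129, 321 and 229.9 CPM at day 1, and 51.3, 47.5, 50.8 and 49.5 CPM at day 12. It rose at day 1 without overlap, by 1.88 ± 0.40 (adjusted p = 0.00113), and changed by -2.37 ± 0.40 (adjusted p = 0.000257) at day 12 against day 1. Its neighbour on chromosome 1 (both within 78619922 to 78664078 on GRCh38), IFI44, was at 73.1, 137, 147 and 119 CPM at day 0, 185, 105, 168 and 142 CPM at day 1, and 53.6, 51.3, 52.4 and 51.3 CPM at day 12. IFI44 was not called at day 1, with 0.33 ± 0.19 (adjusted p = 0.169), and was lower at day 12 than at day 0, with -1.19 ± 0.19 (adjusted p = 8.35e-05) and no overlap. IFI35 was at 10.9, 70.6, 35.8 and 24.4 CPM at day 0, 91.6, 42.3, 87.6 and 60.0 CPM at day 1, and 40.4, 30.5, 29.5 and 29.9 CPM at day 12. It was not called at day 1 against day 0, with 0.99 ± 0.40 (adjusted p = 0.0527), and fell at day 12 against day 1, with -1.11 ± 0.40 (adjusted p = 0.0374). XAF1 was at 3.81, 8.30, 22.2 and 13.1 CPM at day 0, 33.4, 13.3, 29.5 and 19.5 CPM at day 1, and 11.7, 13.6, 16.4 and 12.8 CPM at day 12, a change of 1.011 ± 0.39 (adjusted p = 0.0452) at day 1. IFI44L passed at day 12 against day 0 without day 0 replicate 1 (-0.80, adjusted p = 0.0295). IFI35 passed at day 1 against day 0 without day 0 replicate 2 or day 1 replicate 2 (1.17 to 1.59, adjusted p = 7.98e-05 to 0.0341). IFI35 did not pass at day 12 against day 1 without day 1 replicates 1, 3 or 4 or day 12 replicates 2, 3 or 4 (-1.18 to -0.96, adjusted p = 0.0513 to 0.103). XAF1 did not pass at day 1 against day 0 without day 0 replicates 1 or 4 or day 1 replicates 1, 3 or 4 (0.72 to 1.10, adjusted p = 0.0537 to 0.137). The rise of XAF1 was also not called with DESeq2 or in a fit of days 0 and 1 alone.

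The other human effectors were SP100, EIF2AK2 (the RNA-activated kinase PKR), ISG20, CMPK2 and RSAD2 (viperin). SP100, a nuclear body protein, rose by 0.60 ± 0.11 (adjusted p = 0.000467) at day 1 and EIF2AK2 by 0.55 ± 0.20 (adjusted p = 0.0311). ISG20, CMPK2 and RSAD2 averaged under 2 CPM on each day in LHCN-M2, and at day 1 ISG20 (1.31) and CMPK2 (2.53) were called and RSAD2 (1.29) was not. The deposited positions of RSAD2 and CMPK2 overlap on opposite strands, and the strand setting of the counting is not given, so their reads cannot be told apart there. In C2C12, Xaf1 rose by 0.90 ± 0.13 (adjusted p = 5.25e-06), Eif2ak2 by 0.72 ± 0.11 (adjusted p = 4.98e-06), Ifi44 by 0.51 ± 0.20 (adjusted p = 0.0336) and Ifi35 by 0.50 ± 0.13 (adjusted p = 0.00265) at day 6 against day 0. Sp100 was lower at day 6, with -0.52 ± 0.13 (adjusted p = 0.00111). Isg20, Rsad2, Cmpk2 and Ifi44l were not called against day 0 on either day.

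IFIH1 (MDA5) and DDX58 (RIG-I) are the cytoplasmic sensors of foreign double-stranded RNA. In LHCN-M2, IFIH1 was at 7.06, 16.5, 30.2 and 19.0 CPM at day 0, 68.1, 24.3, 58.8 and 49.9 CPM at day 1, and 24.3, 23.7, 23.6 and 20.9 CPM at day 12. DDX58 was at 34.3, 53.2, 87.9 and 61.2 CPM at day 0, 148, 73.9, 137 and 109.5 CPM at day 1, and 58.9, 52.6, 60.3 and 50.4 CPM at day 12. IFIH1 rose by 1.47 ± 0.34 (adjusted p = 0.00243) and DDX58 by 0.98 ± 0.24 (adjusted p = 0.00320) at day 1 against day 0, and both fell at day 12 against day 1, IFIH1 with -1.12 ± 0.34 (adjusted p = 0.0158) and DDX58 with -1.08 ± 0.24 (adjusted p = 0.00216). IFIH1 did not pass at day 12 against day 1 without day 1 replicate 1 (-0.94, adjusted p = 0.0565). In C2C12, Ifih1 was at 68.7, 40.9, 42.5 and 41.7 CPM at day 0, 44.7, 67.9, 58.0 and 46.4 CPM at day 1, and 36.7, 35.01, 36.8 and 38.3 CPM at day 6. Ddx58 was at 248, 179, 171 and 155 CPM at day 0, 205, 266, 215 and 197 CPM at day 1, and 195, 186, 192 and 191 CPM at day 6. Ifih1 was lower at day 6, with -0.40 ± 0.14 (adjusted p = 0.0171) against day 0, and Ddx58 was not called, with 0.02 ± 0.11 (adjusted p = 0.889). Ifih1 passed at day 1 against day 0 without day 0 replicate 1 (0.42, adjusted p = 0.00183). Ifih1 did not pass at day 6 against day 0 without day 0 replicate 1 (-0.19, adjusted p = 0.111). Ddx58 passed at day 1 against day 0 without day 0 replicate 1 or day 1 replicates 1 or 4 (0.30 to 0.43, adjusted p = 7.87e-05 to 0.0428). Ddx58 passed at day 6 against day 1 without day 1 replicates 1 or 4 (-0.31 to -0.29, adjusted p = 0.0287 to 0.0411). With DESeq2 the fall of Ifih1 was not called.

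STAT2, IRF9, IRF7 and IRF1 are the transcription factors among the members. STAT2 in LHCN-M2 was at 130.4, 163, 219 and 167 CPM at day 0, 478, 381, 524 and 419 CPM at day 1, and 265, 279, 281 and 274 CPM at day 12. The 3 days did not overlap, and the change was 1.41 ± 0.13 (adjusted p = 4.62e-07) at day 1 and 0.69 ± 0.13 (adjusted p = 0.000367) at day 12, each against day 0. IRF9, its partner in the ISRE-binding complex, was at 2.76, 3.39, 4.24 and 4.52 CPM at day 0, 7.17, 4.74, 5.74 and 5.68 CPM at day 1, and 3.39, 2.92, 2.34 and 2.21 CPM at day 12. It changed by 0.64 ± 0.20 (adjusted p = 0.0149) at day 1 against day 0 and by -1.10 ± 0.20 (adjusted p = 0.000474) at day 12 against day 1, and its deposited position overlaps another gene on the same strand, with which reads may be shared. IRF7, which drives interferon genes, was at 7.33, 33.3, 24.1 and 14.1 CPM at day 0, 43.0, 18.05, 36.8 and 29.4 CPM at day 1, and 30.1, 24.8, 27.7 and 27.5 CPM at day 12, and was not called in any comparison. IRF1, a factor induced by interferon gamma, was at 12.8, 15.8, 12.7 and 12.5 CPM at day 0, 14.7, 12.5, 15.2 and 15.8 CPM at day 1, and 19.0, 17.8, 17.2 and 16.97 CPM at day 12. It was the only member called higher at day 12 than at day 1, with 0.28 ± 0.11 (adjusted p = 0.0462), and its change was 0.40 ± 0.11 (adjusted p = 0.00545) against day 0. IRF9 did not pass at day 1 against day 0 without day 1 replicate 1 (0.53, adjusted p = 0.0573). IRF9 passed at day 12 against day 0 without day 0 replicate 1 or day 12 replicate 1 (-0.59 to -0.58, adjusted p = 0.0266 to 0.0335). IRF7 passed at day 1 against day 0 without day 0 replicate 2 (1.08, adjusted p = 0.00272). IRF7 passed at day 12 against day 0 without day 0 replicate 2 (0.86, adjusted p = 0.0117). IRF1 did not pass at day 12 against day 1 without day 1 replicates 1, 2 or 3 or day 12 replicates 1, 2, 3 or 4 (0.21 to 0.31, adjusted p = 0.0632 to 0.148). With no filter on low counts the rise of IRF1 at day 12 against day 1 was not called.

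In C2C12, Stat2 was at 133, 101, 103 and 88.2 CPM at day 0, 131, 168, 169.5 and 138 CPM at day 1, and 117, 109, 115 and 109 CPM at day 6. Irf9 was at 89.4, 59.0, 58.7 and 47.4 CPM at day 0, 79.2, 91.8, 89.3 and 71.5 CPM at day 1, and 98.9, 96.1, 94.7 and 102 CPM at day 6. Stat2 rose by 0.51 ± 0.10 (adjusted p = 0.000189) at day 1 and stood at 0.08 at day 6, each against day 0, while Irf9 rose by 0.38 ± 0.13 (adjusted p = 0.0153) at day 1 and by 0.62 ± 0.13 (adjusted p = 0.000196) at day 6. For all 4 factors, replicate 1 was the highest library of day 0. Irf7 was at 75.6, 43.0, 39.7 and 34.5 CPM at day 0, 44.8, 61.7, 53.0 and 43.3 CPM at day 1, and 54.5, 70.9, 56.5 and 61.2 CPM at day 6. Irf1 was at 108, 81.4, 86.6 and 90.8 CPM at day 0, 101, 100.3, 100.5 and 97.7 CPM at day 1, and 68.7, 65.1, 60.5 and 65.7 CPM at day 6. Irf7 was not called in any comparison, and Irf1 was lower at day 6, with -0.50 ± 0.07 (adjusted p = 3.00e-06) against day 0 and no overlap. Stat2 passed at day 6 against day 0 without day 0 replicate 1 (0.20, adjusted p = 0.0345). Irf7 passed at day 1 against day 0 without day 0 replicate 1 (0.42, adjusted p = 0.00277). Irf7 passed at day 6 against day 0 without day 0 replicate 1 (0.63, adjusted p = 2.42e-05). Irf1 passed at day 1 against day 0 without day 0 replicate 1 (0.25, adjusted p = 0.00106). With DESeq2 the rise of Irf9 at day 1 was not called.

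**Figure D3:**
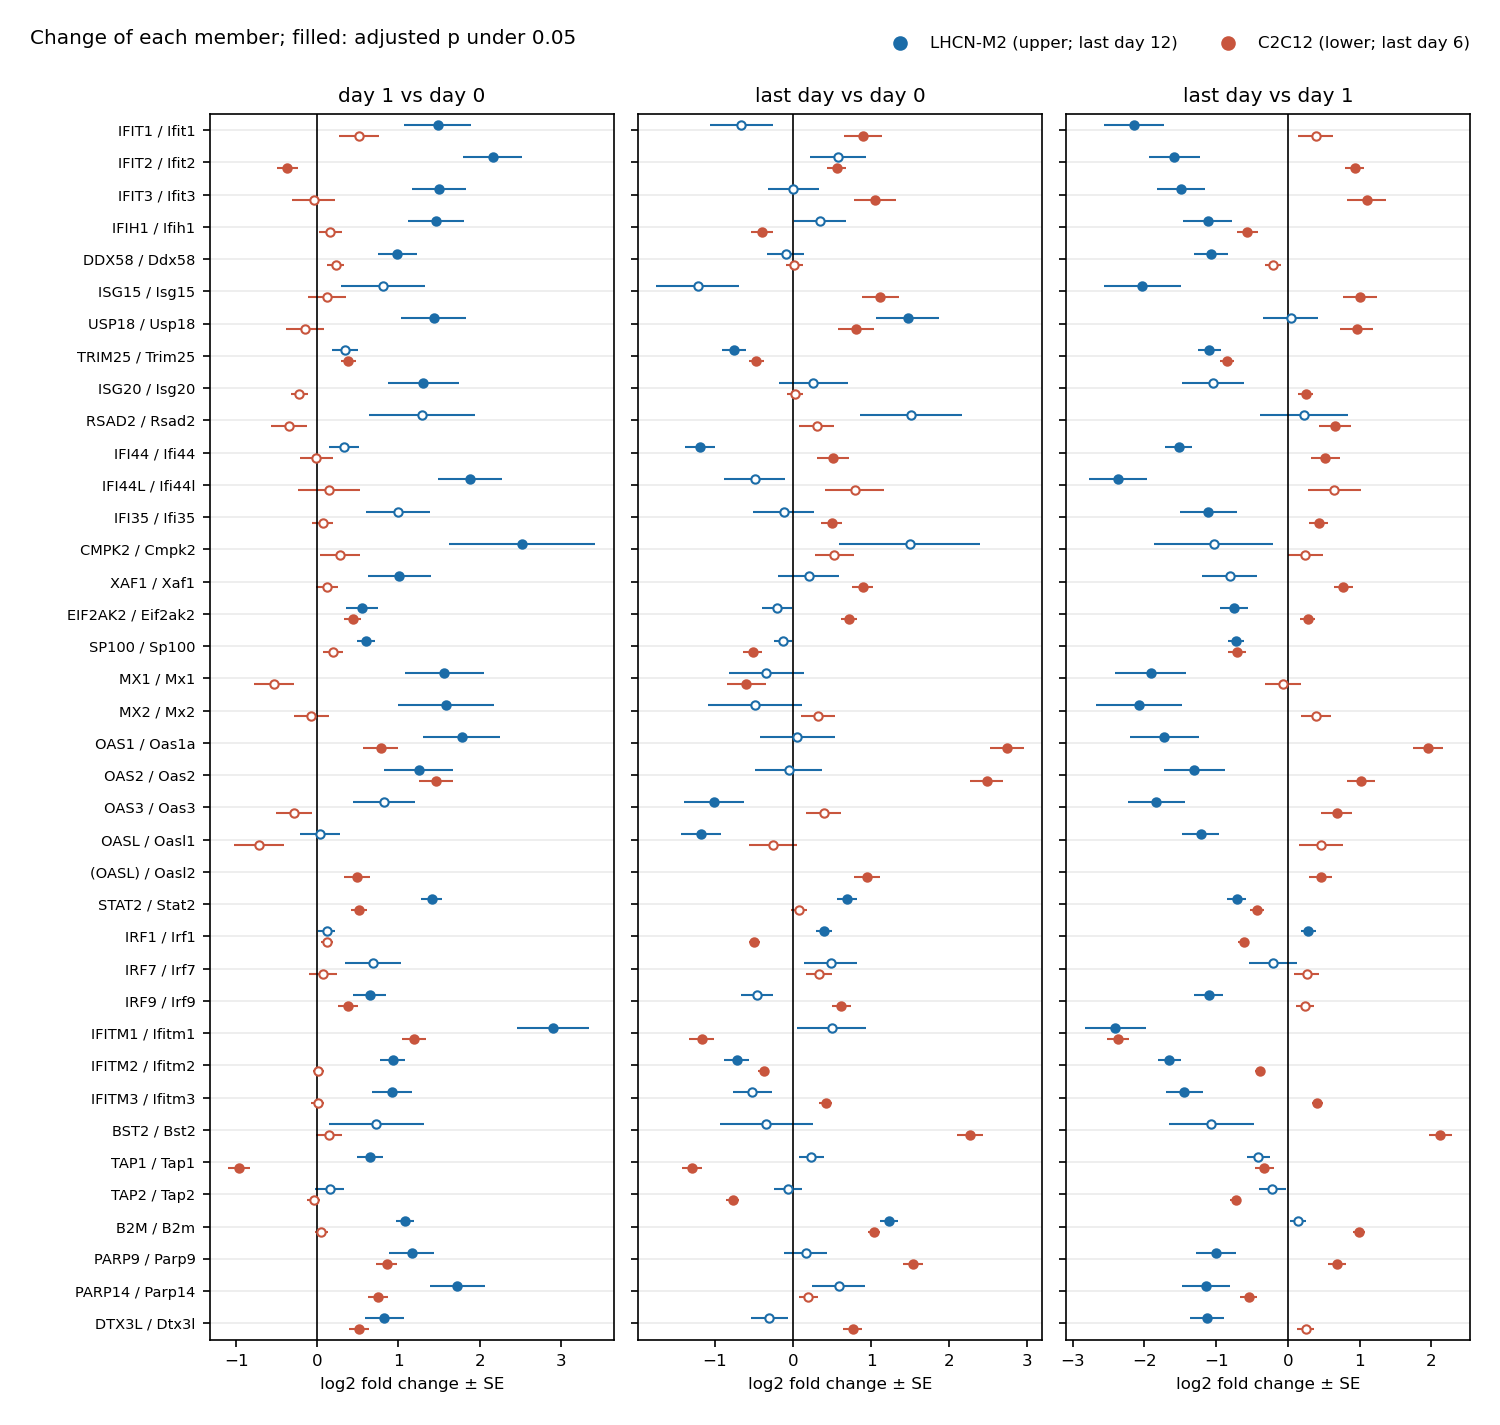
Log2 fold change with its SE for each member in the 3 comparisons, LHCN-M2 above C2C12 in each row, filled where the adjusted p is under 0.05. In the left panel no LHCN-M2 member is called below 0, and in the right panel 12 members are called in opposite directions in the lines.

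The members moved together between libraries of the same day. LHCN-M2 day 0 replicate 1 had the lowest value of its day for 34 of the 37 members, while it was lowest for 18.04% of all genes tested. LHCN-M2 day 1 replicate 2 was lowest for all 37, against 26.6% of all genes. C2C12 day 0 replicate 1 was highest for all 38, against 30.0% of all genes. Summed over the members, LHCN-M2 libraries held 1938 to 3731 CPM at day 0, 4316 to 7692 CPM at day 1 and 3881 to 4281 CPM at day 12. C2C12 libraries held 2837 to 4573 CPM at day 0, 3356 to 4312 CPM at day 1 and 5241 to 5708 CPM at day 6. The median SD of log2 CPM between replicates was 0.83 for the LHCN-M2 members at day 0, against 0.30 for all genes, and 0.57 against 0.15 at day 1. At day 12 it was 0.13 for the members and 0.18 for all genes. In C2C12 it was 0.38 for the members against 0.16 for all genes at day 0, 0.25 against 0.14 at day 1 and 0.10 against 0.14 at day 6. So the members varied more than most genes between libraries of days 0 and 1 and no more than most on the last day, as a description with no test.

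**Figure D4:**
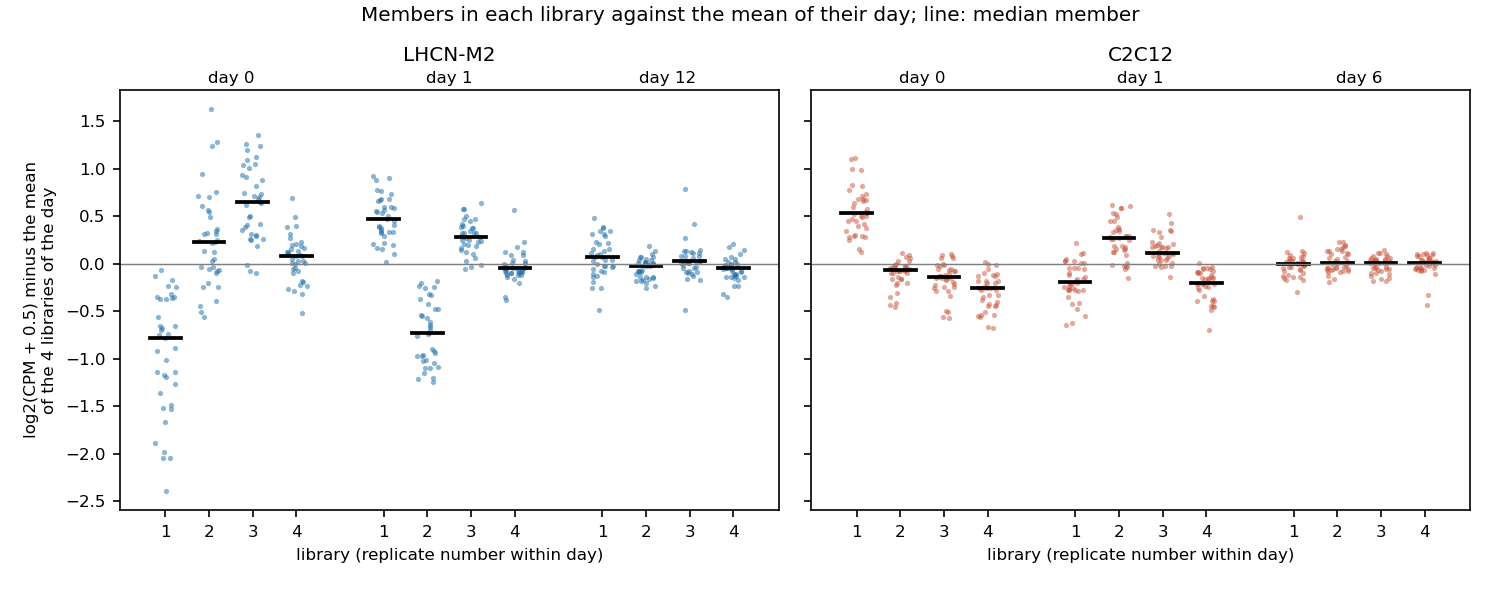
Each point is a member in 1 library, as log2(CPM + 0.5) minus the mean of the 4 libraries of the day, and the black line is the median member. LHCN-M2 day 0 replicate 1 and day 1 replicate 2 lie below their days and C2C12 day 0 replicate 1 above, while the libraries of the last day lie close to 0.

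All libraries of day 1 lay above all libraries of day 0 for 9 of the 37 members, where they did for 22% of all genes. At day 12 against day 1, 25 members had all libraries lower, where 22% of all genes did. In C2C12, 13 of 38 members had all libraries of day 6 above day 0 and 8 had all below, where 30.2% and 28.8% of all genes did.

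The change of each member was compared between the lines in 1 fit of all 24 libraries, as LHCN-M2 minus C2C12. It covered 36 members paired 1 to 1 by symbol, with Oas1a taken for OAS1. OASL was left out because both Oasl1 and Oasl2 stand for it. A shared symbol does not make paired genes each other's only counterparts, which was not checked. The last days, 12 and 6, are not the same time. At day 1 against day 0, 18 of 36 members changed more upward in LHCN-M2 and none more upward in C2C12, where 26% and 34% of all 10954 genes tested did. The median difference was 0.92, against -0.09 over all genes. Without C2C12 day 0 replicate 1 the count was 10, all more upward in LHCN-M2, with 58.8% of all genes called in either direction. IFIT2 rose in LHCN-M2 and fell in C2C12, a difference of 2.53 ± 0.42 (adjusted p = 1.33e-05), and TAP1 did likewise, with 1.61 ± 0.23 (adjusted p = 2.09e-06). In C2C12 the Ifit2 libraries of days 0 and 1 overlapped, and its fall was not called without C2C12 day 0 replicate 1. Tap1 kept its call with any 1 C2C12 library of those days left out. MX1 also differed, with 2.10 ± 0.62 (adjusted p = 0.00568).

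At the last day against day 0, 5 of the 36 members changed more upward in LHCN-M2 and 12 more upward in C2C12, where 31.2% and 40% of all genes did, with a median of -0.32 against -0.13. OAS1 differed by -2.68 ± 0.59 (adjusted p = 0.000282), OAS2 by -2.54 ± 0.54 (adjusted p = 0.000204), BST2 by -2.60 ± 0.60 (adjusted p = 0.000473) and ISG15 by -2.34 ± 0.66 (adjusted p = 0.00292). IRF1 rose in LHCN-M2 and fell in C2C12, a difference of 0.90 ± 0.12 (adjusted p = 7.23e-07), and IFI44 fell in LHCN-M2 and rose in C2C12, with -1.70 ± 0.33 (adjusted p = 7.65e-05). At the last day against day 1, 2 members changed more upward in LHCN-M2 and 23 more upward in C2C12, where 27% and 29.9% of all genes did, and the median was -1.31 against -0.05. In this comparison 12 members were called in opposite directions: 11 of them, IFIT2, IFIT3, ISG15, OAS1, OAS2, OAS3, IFI44, IFI35, IFITM3, PARP9 and EIF2AK2, fell in LHCN-M2 and rose in C2C12, and IRF1 did the reverse. The difference was -3.68 ± 0.58 (adjusted p = 8.71e-06) for OAS1, -3.03 ± 0.66 (adjusted p = 0.000436) for ISG15 and -2.59 ± 0.50 (adjusted p = 0.000117) for IFIT3. On the C2C12 side, 18 members rose at day 6 against day 1 with edgeR and 11 with DESeq2. The members that lost the call there are not listed here, so not all of the 12 opposite calls need hold with DESeq2. Some of the 12 opposite calls rested on LHCN-M2 calls near the threshold. With 1 library left out, the LHCN-M2 call was lost in 7 of 8 fits for IRF1, 6 for IFI35 and 5 for OAS2.

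Of the ligands, IFNE, an epithelial type I interferon, was the only one of 9 interferon genes that passed the filter in LHCN-M2, and none of the 9 did in C2C12. IFNE averaged 3.596 ± 0.502 CPM at day 0, 1.41 ± 0.220 CPM at day 1 and 0.367 ± 0.134 CPM at day 12 (SD, n = 4 each), a change of -1.35 ± 0.25 (adjusted p = 0.000331) at day 1 and -3.28 ± 0.28 (adjusted p = 1.00e-07) at day 12, each against day 0. IFNB1, interferon beta, had 2 counts in each of 2 LHCN-M2 libraries and 0 in the other 10, and Ifnb1 had at most 12 counts in a C2C12 library. The receptor chain IFNAR1 averaged 94.8 ± 8.37 CPM at day 0, 105 ± 9.54 CPM at day 1 and 111 ± 8.94 CPM at day 12, and IFNAR2 0.533 ± 0.196 CPM at day 0, 0.764 ± 0.144 CPM at day 1 and 0.637 ± 0.0793 CPM at day 12. Overlap with other annotated genes was examined for the members only, so whether it lowers the IFNAR2 counts is not known. In C2C12, Ifnar1 averaged 88.9 ± 4.24 CPM at day 0, 83.1 ± 3.35 CPM at day 1 and 78.9 ± 2.71 CPM at day 6, and Ifnar2, at 48.7 ± 1.88 CPM at day 0, 29.8 ± 1.90 CPM at day 1 and 23.9 ± 1.64 CPM at day 6, was lower at day 6 with -1.03 ± 0.07 (adjusted p = 5.40e-11). Of 9 receptor and JAK-STAT genes tested in LHCN-M2, 2 rose and 1 fell at day 1 against day 0, with a median of 0.17, where 23.4% and 23.5% of all genes did. Of 9 in C2C12, none rose and 6 fell at day 6 against day 0, with a median of -0.29, where 33.1% and 32.5% of all genes did, and the kinase Tyk2 had -1.10 ± 0.10 (adjusted p = 1.01e-08) at day 6 against day 1.

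Of 19 tested genes in a list of further interferon-induced genes, 15 rose and 1 fell in LHCN-M2 at day 1 against day 0, with a median of 0.81 (0.03 over all genes), where 23.4% and 23.5% of all genes did, and 12 fell and none rose at day 12 against day 1, where 18.8% and 20.9% did. GBP2, a guanylate-binding protein, had 1.91 ± 0.10 (adjusted p = 7.05e-10) at day 1, IFI6, a mitochondrial and endoplasmic reticulum protein, 1.52 ± 0.44 (adjusted p = 0.00952), HERC6 1.32 ± 0.33 (adjusted p = 0.00413) and UBA7, the activating enzyme for ISG15, 1.05 ± 0.16 (adjusted p = 6.84e-05). GBP2 was still higher at day 12 than at day 0, with 1.65 ± 0.10 (adjusted p = 2.43e-09), and SP110 was lower, with -1.21 ± 0.19 (adjusted p = 6.91e-05). At day 12 against day 1 HERC6 fell with -1.79 ± 0.34 (adjusted p = 0.000604), HELZ2 with -1.41 ± 0.30 (adjusted p = 0.00157) and UBA7 with -1.19 ± 0.16 (adjusted p = 3.17e-05), as did ADAR, an RNA-editing enzyme, with -1.17 ± 0.15 (adjusted p = 2.01e-05). Of 18 such genes in C2C12, 8 rose and 2 fell at day 1, and 5 rose and 6 fell at day 6, each against day 0, with medians of 0.27 and -0.03. At day 1, 25.9% of all genes rose and 24.4% fell, and at day 6, 33.1% and 32.5%. Ube2l6, the conjugating enzyme for Isg15, had 1.28 ± 0.13 (adjusted p = 1.60e-08) and Rtp4 1.28 ± 0.20 (adjusted p = 7.79e-06) at day 6 against day 0. Cxcl10, a chemokine, was lower at day 1, with -1.02 ± 0.25 (adjusted p = 0.00200), and Helz2 and Znfx1 were lower at day 6 than at day 1, with -1.13 and -1.12.

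Of 11 tested nucleic acid sensing genes outside the members, 3 rose and 3 fell in LHCN-M2 at day 1, and 1 rose and 7 fell at day 12, each against day 0, with medians of 0.13 and -0.55. Of all genes, 23.4% rose and 23.5% fell at day 1, and 27.1% rose and 27.5% fell at day 12, each against day 0, so 3 of 11 each way at day 1 is near the general share. DHX58 (LGP2) had 1.003 ± 0.26 (adjusted p = 0.00575) at day 1, while CGAS, the DNA sensor, had -1.35 ± 0.19 (adjusted p = 3.27e-05) at day 1 and TMEM173 (STING), its adaptor, -1.26 ± 0.10 (adjusted p = 2.83e-08) at day 12. IKBKE, a kinase of these pathways, had -1.46 ± 0.11 (adjusted p = 2.62e-08) at day 12, and MYD88, a Toll-like receptor adaptor, fell at day 12 against day 1, with -1.26 ± 0.12 (adjusted p = 1.16e-06). In C2C12, 5 of 12 rose and 2 fell at day 6 against day 0 (median 0.12), where 33.1% and 32.5% of all genes did, with 1.79 ± 0.21 (adjusted p = 1.72e-07) for Zbp1, a sensor of Z-form nucleic acid, 1.03 ± 0.11 (adjusted p = 8.84e-08) for Tlr3 and -1.12 ± 0.09 (adjusted p = 4.94e-10) for the kinase Ikbke. Of 11 MHC class I presentation genes outside the members, 7 rose and none fell in LHCN-M2 at day 1, and 5 rose and 1 fell at day 12, each against day 0, with medians of 0.59 and 0.14. HLA-B was at 78.2, 142, 88.7 and 77.3 CPM at day 0, 315, 211, 213 and 256 CPM at day 1, and 521, 459.8, 415 and 449 CPM at day 12, a change of 2.26 ± 0.19 (adjusted p = 6.87e-08) at day 12 against day 0. Reads of HLA-B may be shared with related genes. NLRC5, the activator of MHC class I genes, fell at day 12 against day 1, with -1.03 ± 0.13 (adjusted p = 1.15e-05). Of 10 such genes in C2C12, 6 rose and 2 fell at day 6 against day 0, none by 2-fold (median 0.19). Of 6 negative regulators of interferon signalling tested in LHCN-M2, none rose and 2 fell at day 12, SOCS3 with -1.06 ± 0.11 (adjusted p = 1.18e-06), and of 7 in C2C12 none rose and 4 fell at day 6, Irf2 with -1.01 ± 0.09 (adjusted p = 6.00e-09), each against day 0, with list medians of -0.26 and -0.54. In LHCN-M2, 2 of these 6 rose and 3 fell at day 1 against day 0, where 23.4% and 23.5% of all genes did. At day 12 against day 1, 1 rose and 2 fell, where 20.9% and 18.8% did. In C2C12, none of these 7 rose and 2 fell at day 1 against day 0, where 25.9% and 24.4% of all genes did. At day 6 against day 1, 1 rose and 5 fell, where 32.8% and 28.6% did.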

How the data were processed

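Whole-number gene counts were deposited as 1 table per line, and every count column carried the title of its sample (columns of no sample: 0). Per the submitters' processing notes, the authors' tools for these counts were featureCounts 2.0.6, StringTie 2.2.3, HISAT2 2.2.1 and fastp, and the builds were mm10, GRCh38 and hg38. The sources used here give neither the strand setting nor the treatment of reads that match several genes. Deposited positions of 24 of the 37 human members overlap another annotated gene, 9 of them on the same strand, so their reads may be shared. Counts were analysed with edgeR 4.0.16 in R 4.3.3: genes kept by filterByExpr (99.9% of counts), TMM factors, and the quasi-likelihood test over all 12 libraries of a line, with Benjamini-Hochberg adjustment over all genes tested and a threshold of 0.05. Differences between the lines were an interaction term in a fit of 24 libraries on symbols matched ignoring case, with Oas1a for OAS1 and without OASL. CPM are counts relative to the filtered, TMM-scaled library total. The fit within a line was tried on simulated counts with the spread general to genes of a given level. The test of differences between the lines was tried only in a simpler simulated design. Members varied more than most genes on days 0 and 1, so neither trial covers their own spread.

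The members and all lists were chosen with earlier results of these data known. Values in every library are given for members that averaged at least 10 CPM on 1 day of a line and changed at least 2-fold with an adjusted p under 0.05 in 1 comparison of that line, and for STAT2, IRF1, IRF7, IRF9, IFIH1 and DDX58. From each pathway list up to 4 genes per comparison that changed as much are named, and some that this rule selects are not reported here. Replicate numbers were not used to pair samples in the main fits, because nothing given says that a number marks a shared culture. Deviations of same-numbered libraries were correlated between days. Over all genes tested, the correlations ran from -0.10 to 0.09 in LHCN-M2 and from -0.05 to 0.04 in C2C12. Over the members alone they ran from -0.65 to 0.58 in LHCN-M2 and from -0.37 to 0.56 in C2C12. No pair of replicates agreed within sampling noise. Alternatives were RLE factors, no filter, a stricter filter of 1 CPM in 4 libraries, DESeq2 1.42.0, a replicate block, fits of 2 days only, and each library left out. Each library's depth sets its counting error alone.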

Additional observations from a re-analysis of the deposited data

Results flagged for a closer look

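Of 135 sets of 4 replicates of the named members and their sums, 9 had 1 library whose gap to the next was above Dixon's critical value for 4 samples at the 95% level. Chance flags about 1 in 20. In LHCN-M2 day 12 replicate 1, ISG15 at 75.5 CPM and IFI35 at 40.4 CPM lay above the other 3 libraries, as did the sum of all members at 4281 CPM. In LHCN-M2 day 0 replicate 2, IRF1 lay above the others at 15.8 CPM. In C2C12 day 0 replicate 1, Ifit3 at 253 CPM, B2m at 798 CPM and Ifih1 at 68.7 CPM lay above the others, as did the sum of all members at 4573 CPM. In C2C12 day 1 replicate 4, Irf1 lay below the others at 97.7 CPM.

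The change differed between the lines for 26 values, by edgeR's test of the interaction at an adjusted p under 0.05 and with a difference of at least 4-fold or calls in opposite directions. At day 1 against day 0, LHCN-M2 minus C2C12 on the log2 scale, the difference was 2.53 for IFIT2, 2.10 for MX1, 1.61 for TAP1 and 2.22 for CMPK2. At the last day against day 0 it was -2.34 for ISG15, -2.68 for OAS1, -2.54 for OAS2, 0.90 for IRF1, -1.70 for IFI44 and -2.60 for BST2.

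At the last day against day 1 it was -2.53 for IFIT1, -2.51 for IFIT2, -2.59 for IFIT3, -3.03 for ISG15, -2.47 for MX2, -3.68 for OAS1, -2.33 for OAS2 and -2.52 for OAS3. Among the other members it was 0.90 for IRF1, -2.04 for IFI44, -3.004 for IFI44L, -1.54 for IFI35, -1.85 for IFITM3, -3.18 for BST2, -1.68 for PARP9 and -1.03 for EIF2AK2. LHCN-M2 was sampled at day 12 and C2C12 at day 6, so line and time of the last day cannot be told apart.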

How the results depend on the processing

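Of 1890 recomputed values of 129 named log2 fold changes, 1746 kept their direction and side of the threshold, 55 lost the call, 57 gained it and 32 turned sign. None of those 32 was called over all libraries, and 31 were not called after turning either; the exception was Ifit3 in C2C12 at day 1 against day 0, at 0.53 without day 0 replicate 1. Most changes came with a library left out, and the cause was not tested. The member counts that follow are given without the share of all genes called in the same fits. They do not show whether the members moved more than other genes. Leaving out 1 library, members called ranged from 8 to 15 for LHCN-M2 day 12 against day 0, from 12 to 28 for C2C12 day 1 against day 0, and from 10 to 23 for the difference between the lines at day 1. With no filter on low counts, 20 members were called in C2C12 at day 1 against day 0, against 13 with it. With the replicate number as a block, members called were 24, 9 and 25 in LHCN-M2 and 13, 28 and 27 in C2C12, for day 1 against day 0, the last day against day 0 and the last day against day 1, and 18, 17 and 25 for the differences between the lines; of the named calls, IFI35 and IRF1 at day 12 against day 1, MX2 at day 1 and OAS3 at day 12 against day 0 were lost. Without LHCN-M2 day 0 replicate 2 and day 12 replicate 1, an alternative chosen after seeing the data, the differences between the lines counted 20, 19 and 25 members. IFI35 stood at 0.36 at day 12 against day 0 in that fit. Ranges over single libraries left out were -0.29 to 0.16 for DDX58, -0.42 to 0.46 for IFI35, -0.26 to 0.32 for IFIT3, -0.70 to 0.064 for MX1, -0.89 to 0.020 for MX2, -0.30 to 0.55 for OAS1, -0.38 to 0.48 for OAS2, -0.086 to 0.42 for PARP9 and -0.10 to 0.69 for XAF1 (LHCN-M2 day 12 against day 0). For C2C12 day 6 against day 0 they were -0.074 to 0.17 for Ddx58 and -0.013 to 0.20 for Stat2. For C2C12 day 1 against day 0 they were -0.21 to 0.53 for Ifit3, -0.025 to 0.42 for Irf7 and -0.025 to 0.69 for Isg15. For LHCN-M2 day 12 against day 1 they were -0.20 to 0.29 for USP18. With the block, OAS2 stood at 0.075 in LHCN-M2 at day 12 against day 0 and Ifit3 at 0.038 in C2C12 at day 1 against day 0. Ddx58 in C2C12 at day 6 against day 0 stood at -0.010 with no filter and -0.0080 with the stricter one. Members under 2 CPM have few counts and wide standard errors.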
